A study of Sus scrofa with 95 samples.

Results

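Of the 35670 genes in a table of 95 libraries from infant pigs, 43 carry a symbol of the chemokine families: CCL, CXCL, XCL or CX3CL for a ligand, CCR, CXCR, XCR or CX3CR for a receptor and ACKR for an atypical receptor, each followed by a number. They were taken by that rule on the symbol alone, and the families were chosen with earlier results of these data known. The 43 genes are 24 chemokines (16 CCL, 7 CXCL and CX3CL1) and 19 receptors, 4 of them atypical. All 43 matched a gene of the same symbol in RefSeq on the pig assembly Sscrofa11.1. On that assembly 11 of them lie on chromosome 13, 10 on chromosome 12, 5 on chromosome 8 and 3 on chromosome 10.

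The libraries came from 5 organs of 19 swine of 5 to 10 kg. 8 animals had anesthesia alone and no drug (control, 4 male and 4 female), and 7 had cardiopulmonary bypass with 75 min of deep hypothermic circulatory arrest and no drug (CPB, 4 male and 3 female). Another 4 had the same bypass and arrest and received 75 mg of linrodostat (2 male and 2 female). Linrodostat is an inhibitor of IDO1, the enzyme that starts tryptophan breakdown along the kynurenine pathway. Each animal gave left ventricle, terminal ileum, kidney cortex, liver and right lower lobe of lung, and the time between the end of bypass and the harvest is not given in the sources used here.

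Chemokines are small secreted proteins that set up gradients on cell surfaces and matrix, and white blood cells follow those gradients through receptors coupled to inhibitory G proteins. Inflammatory members are induced by cytokines and recruit neutrophils, monocytes or activated T cells. Homeostatic members such as CXCL12, CCL19, CCL21 and CCL25 are made constantly and place cells within tissues. Atypical receptors bind chemokines without G protein signalling and remove, store or carry them across cells.

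Total counts ran from 19956859 to 53627723 per library. When each organ was fitted by itself, 40 of the 43 genes had enough reads to be tested in kidney, lung and ileum alike, 36 in liver and 32 in heart, and 31 were tested in all 5 organs. The summed markers of heart, kidney, liver and lung were higher in every library of their own organ than in any other library. The ileal sum (FABP6, VIL1, FABP2 and APOA4) ran from 446.9 to 9570 CPM in ileum and from 57.6 to 4542 in liver, where the median of APOA4 alone was 113 CPM in control against a median sum of 153. Some transcripts used as markers of another organ were higher after bypass. The kidney marker UMOD passed as higher in lung. The summed kidney-marker level was at most 0.123 CPM in control lungs, with a median of 0 and a highest value of 61.4 in CPB lungs. SFTPC (3.67 ± 0.99) and APOA4 (4.04 ± 0.60) rose in kidney, where APOA4 was at 0.724 to 9.99 CPM in control and 16.9 to 158 in CPB. Whether such transcripts came from another organ, and their part in the results, was not tested. The 2 changes in kidney, like those below, are log2 fold changes with their standard error. CPM is the counts-per-million level. It is a gene's reads scaled to the library's total over the genes kept for testing, corrected by a normalization factor (TMM). In bulk tissue fewer cells of a type and less RNA per cell cannot be told apart. Some libraries stand apart. Control animal 15 had the highest control level for 21 of the 40 genes tested in kidney, 19 of 40 in lung, 11 of 36 in liver and 11 of 32 in heart. In ileum control animal 13 was highest for 16 of 40 and animal 15 for 8. How many of all genes were highest in each animal is not given. The ileum library of CPB animal 19 held FABP6, an ileal bile acid carrier, at 10.5 CPM, against 1658 to 4930 in the other 6 CPB ileums. The heart libraries carry the label batch 2 and all other organs batch 1, so heart and batch cannot be told apart when organs are compared. The row named CCR2 is called CCR3 in the accompanying table of gene identifiers, and its values are given under the table's own name. 12 of the 43 overlap another gene on the assembly, and as no strand is stated for the counting, reads of such neighbours cannot be told apart. They include ACKR2 (with ZNF662), ACKR4 (with ACAD11), CXCL10 and CXCL11 (with ART3), CCR1 (with XCR1), CXCR5 (with BCL9L) and CX3CR1 and CCR9 (each with a long non-coding RNA).

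In the 8 control animals the members were transcribed in strongly organ-dependent amounts. Levels here are CPM scaled over all 95 libraries, given as mean ± SD over 8 animals, and each organ was tested against the average of the other 4 with edgeR's quasi-likelihood test. Of the 41 members with enough reads, the ileum had the highest mean for 23, and 22 of these passed as higher there. CCL2, the remaining one, was at 0.46 ± 0.41 (adjusted p = 0.331), and with the animal as a block, since each animal gave all 5 organs, it passed as well (0.92, adjusted p = 0.000625). The lung was highest for 9, the liver for 4, the kidney for 3 and the heart for 2, and all of these passed except CXCL10 in liver, which missed the threshold with the block too (adjusted p = 0.184 and 0.0623). As the highest organ was picked from the same libraries as the test, passing there is no separate support. How many of all genes were highest in each organ is not given. Over all 41 members the ileum was higher for 27 and lower for 4, beside 34.2% and 32.2% of all genes (66.4% either way). The lung was higher for 22 and lower for 5, beside 32.3% and 30.4% (62.7%). The heart was higher for 5 and lower for 25, beside 31% and 40.4% (71.4%). The kidney was higher for 6 and lower for 19, beside 31.9% and 30.3% (62.3%). The liver was higher for 6 and lower for 10, beside 34.3% and 35% (69.3%). With shares of this size over all genes, the levels themselves carry the description.

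**Figure D1:**
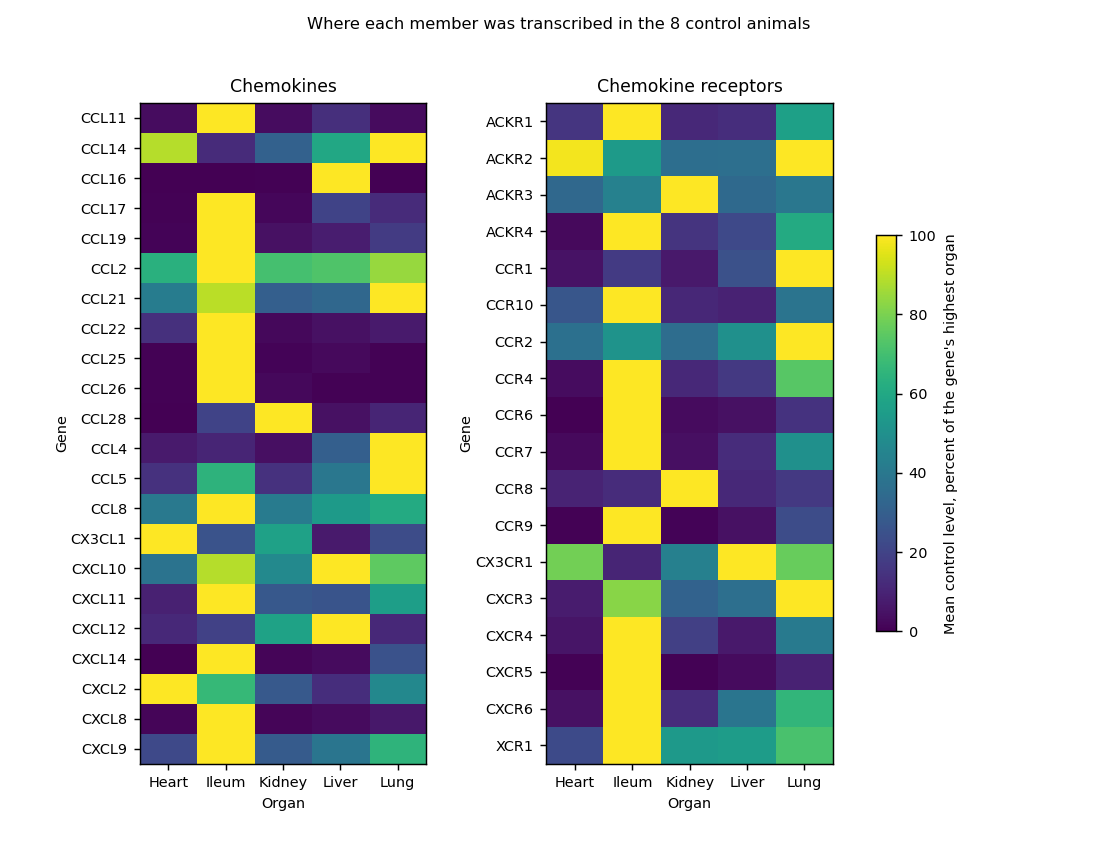
Mean level of 40 of the 41 tested members in the 8 control animals, each row scaled to the organ with its highest mean (percent, color), with organs on the horizontal axis and genes on the vertical axis. The ileum column holds the highest value for 23 genes, and CCL16, CCL25 and CCL26 are near 0% outside a single organ.

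The ligands with the steepest organ preference were made in liver and gut. CCL16, a liver-made ligand of CCR1 known from human liver, was at 324 ± 62.7 CPM in control liver and 1.41 ± 0.98 in kidney, and it was at 0.131 or less in the other 3 organs. Its liver level was above the mean of the other organs by 11.35 ± 0.33 on the log2 scale (adjusted p = 4.6e-28). CCL25, the ligand that draws CCR9-bearing T cells to the small bowel, was at 162 ± 78.1 CPM in ileum and at 1.01 to 3.87 elsewhere. Its receptor CCR9 was likewise highest in ileum, at 17.8 ± 6.83 CPM against 4.16 ± 1.06 in lung. CXCL14, an epithelial chemokine, reached 230 ± 68.8 CPM in ileum and 58.1 ± 23.3 in lung and was at 0.35 ± 0.44 in heart. CCL26, an eotaxin that acts on eosinophils, was at 44.3 ± 43.4 in ileum and at 1.04 or less in the other organs.

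CCL19, CCR7 and CXCR5 were likewise highest in ileum. CCL19, which guides T cells and dendritic cells through CCR7, was at 196 ± 156 CPM in ileum, and CCR7 itself was at 31.5 ± 24.1 there. CCL21, the other ligand of CCR7, was at 71.9 ± 42.6 in ileum and had its highest mean in lung (80.3 ± 30.8). CXCR5, the receptor that brings B cells into follicles, was at 37.9 ± 32.4 CPM in ileum and 3.63 ± 1.02 in lung. The SDs of CCL19, CCR7 and CXCR5 in ileum are close to their means, so control ileums differed widely among themselves. CCR1 and the row named CCR2 had their highest means in lung and CX3CR1 in liver. In lung CCR1 was at 59.8 ± 26.1 CPM and the row named CCR2 at 22.5 ± 6.33, each above every other organ's mean. CX3CR1 was at 17.3 ± 6.88 in liver and 13.3 ± 11.3 in lung.

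Kidney and heart had few members of their own. CCL28, a mucosal chemokine, was at 37.3 ± 23.2 CPM in kidney and 7.45 ± 5.64 in ileum. ACKR3, which scavenges CXCL12, was at 31.3 ± 6.52 in kidney and between 10.5 and 13.7 in the other organs. CCR8, a receptor of regulatory and type 2 T cells, was low everywhere, but its highest mean was in kidney, at 0.65 ± 0.32 CPM against 0.11 or less elsewhere. CX3CL1, a chemokine that is also a membrane-bound adhesion molecule, was at 40.8 ± 28.3 in heart and 23.3 ± 11.7 in kidney. CXCL12, the retention signal for CXCR4-bearing cells, was at 249 ± 47.6 in liver and 143 ± 45.2 in kidney, well above the 28.6 to 47.7 of the other organs.

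The first comparison asked which members changed with bypass and arrest. Changes are log2 fold changes with their standard error from edgeR's quasi-likelihood fit over the 19 libraries of an organ, and a gene passed when its Benjamini-Hochberg adjusted p over all genes tested was under 0.05. CPM in these comparisons are scaled within the organ. 15 of the 43 members passed in at least 1 organ, with 20 calls in all. In kidney 2 rose and 5 fell of 40 (17.5%), where 21.1% of all genes passed (11.3% higher and 9.86% lower). In liver 1 rose and 7 fell of 36 (22.2%), where 26.9% of all genes passed (15.6% higher and 11.3% lower). In lung 3 rose and 1 fell of 40 (10%), where 4.71% of all genes passed (2.08% higher and 2.62% lower). In heart 1 rose of 32 (3.13%), where 11.9% of all genes passed (6.39% higher and 5.53% lower). In ileum 0 of 40 members and 0 of 17869 genes passed (0%). The members' share was below that of all genes in kidney, liver and heart and above it in lung, where it rests on 4 genes. Leaving out 1 animal at a time gave 6 to 9 members in kidney, 5 to 12 in liver, 2 to 6 in lung and 1 to 3 in heart. No difference from genes in general is read from these counts. The median change over the tested members was -0.48 in liver, -0.20 in heart, -0.15 in lung, -0.10 in ileum and -0.06 in kidney, beside medians over all genes between -0.03 and 0.01.

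**Figure D2:**
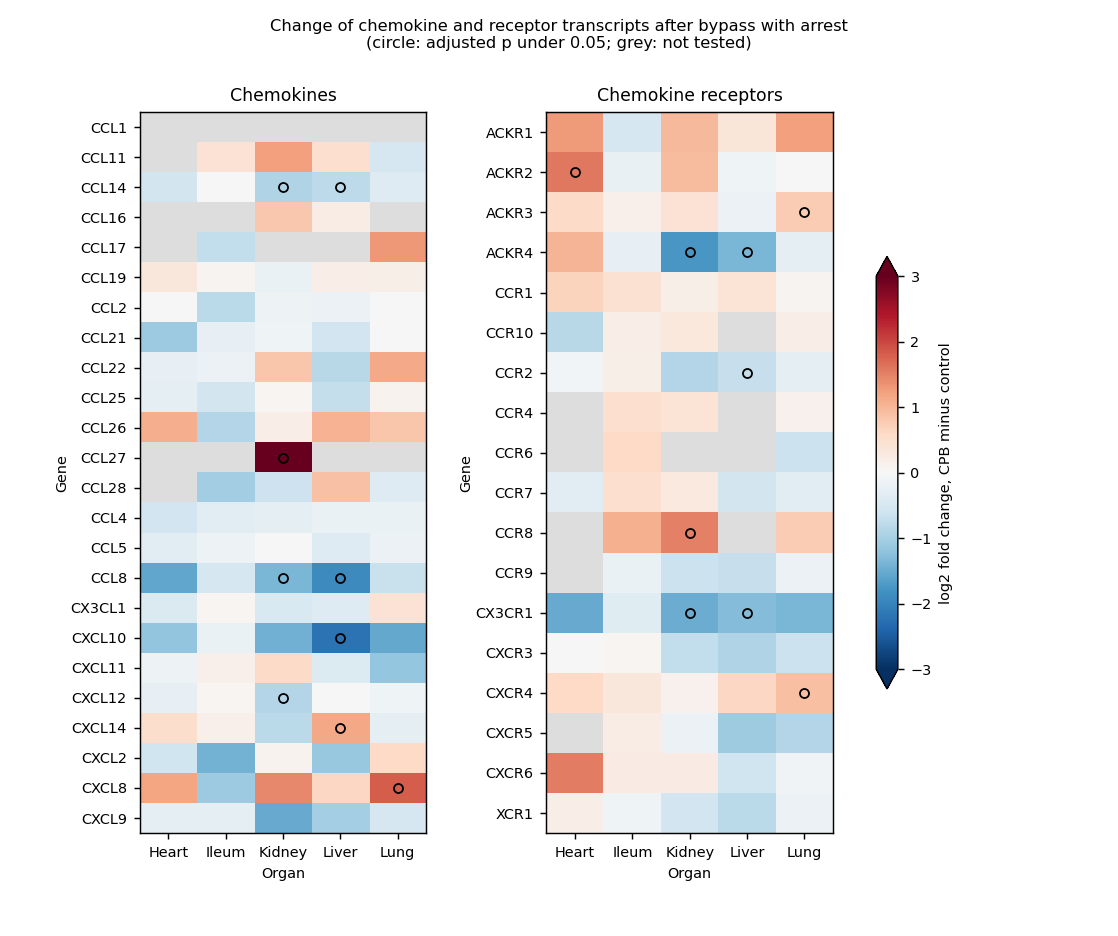
log2 fold change of CPB over control for 42 of the 43 members (rows) in each organ (columns), chemokines on the left and receptors on the right, red for higher and blue for lower in CPB. The color scale ends at 3 in each direction, circles mark adjusted p under 0.05 and grey marks genes not tested; the 18 circles lie in kidney, liver, lung and heart and none in ileum.

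In kidney the ligand CCL27 went from almost no reads to a clear signal, and CCL8, CCL14 and CXCL12 fell. CCL27 (chr10:32138232-32138980) is known as a skin chemokine that attracts CCR10-bearing T cells. Its 8 control kidneys held 0, 0, 0.0233, 0.0255, 0.0274, 0.0306, 0.0779 and 0.238 CPM, 16 reads in all. The 7 CPB kidneys, in the order of their level, held 0.508, 1.65, 1.90, 2.25, 2.31, 2.66 and 4.13 CPM, 489 reads in all. Every CPB kidney was above every control kidney, and the difference was 5.32 ± 0.73 (adjusted p = 9.08e-05). The level in the CPB kidneys stayed low, at 2.20 ± 1.09 CPM. In the other 4 organs CCL27 had 0 to 19 reads per arm and was not tested. CCL19 and CCL21, its neighbours on chromosome 10, did not pass in kidney (-0.20 ± 0.57 and -0.13 ± 0.32). CCR10, the receptor of CCL27, was at 0.31 ± 0.38 (adjusted p = 0.597).

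CXCL12 (chr14:91516383-91543857) was the most highly counted member that changed in kidney. Its control kidneys ranged from 104 to 275 CPM with a median of 176, and its CPB kidneys from 70.5 to 121 with a median of 104. Control animal 14 was the only control inside the CPB range, and the fall was -0.87 ± 0.18 (adjusted p = 0.0032). CXCR4, its signalling receptor, was at 0.13 ± 0.21 in kidney, and ACKR3, its scavenger, at 0.44 ± 0.16 (adjusted p = 0.0555); neither passed. CCL14 (chr12:39611887-39616050), a constitutively made ligand of CCR1, fell by 0.90 ± 0.22 (adjusted p = 0.00798). Its control kidneys ranged from 9.79 to 31.5 CPM (median 15.8), and 6 of the 7 CPB kidneys lay at or below 9.37, with CPB animal 11 at 16.5. CCL8 (chr12:40740468-40741970), a monocyte attractant also called MCP-2, ranged from 3.54 to 23.3 CPM in control kidneys (median 5.05) and from 0.254 to 4.58 in CPB kidneys (median 3.29). Its change of -1.38 ± 0.49 only just passed (adjusted p = 0.0493). Without control animal 15, which held the value of 23.3, it was -0.83 with an adjusted p of 0.140, and the call also ended without any of control 1, 10, 14 and 26 and CPB 2, 6, 9, 11, 21 and 25 (0.0525 to 0.0831).

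Among the kidney's receptors CCR8 rose and CX3CR1 and ACKR4 fell. CCR8 (chr13:23994097-24014849) ranged from 0.163 to 1.56 CPM in control kidneys (median 0.870) and from 1.18 to 4.38 in CPB kidneys (median 2.17). 5 of the 7 CPB kidneys lay above the highest control, and the rise was 1.51 ± 0.36 (adjusted p = 0.00625). CX3CR1 (chr13:23944386-23957567), the fractalkine receptor of patrolling monocytes and tissue macrophages, ranged from 5.23 to 14.6 CPM in control (median 9.22) and from 0.891 to 6.74 in CPB kidneys (median 3.55). It fell by 1.50 ± 0.41 (adjusted p = 0.0144). ACKR4 (chr13:73773862-73777770), a scavenger of CCL19, CCL21 and CCL25, ranged from 1.4 to 7.05 CPM in control (median 3.22) and from 0.297 to 2.14 in CPB kidneys (median 0.914). Its fall was -1.75 ± 0.42 (adjusted p = 0.0071), while ACAD11, the gene that spans it, was at -0.26 ± 0.15 (adjusted p = 0.221).

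**Figure D3:**
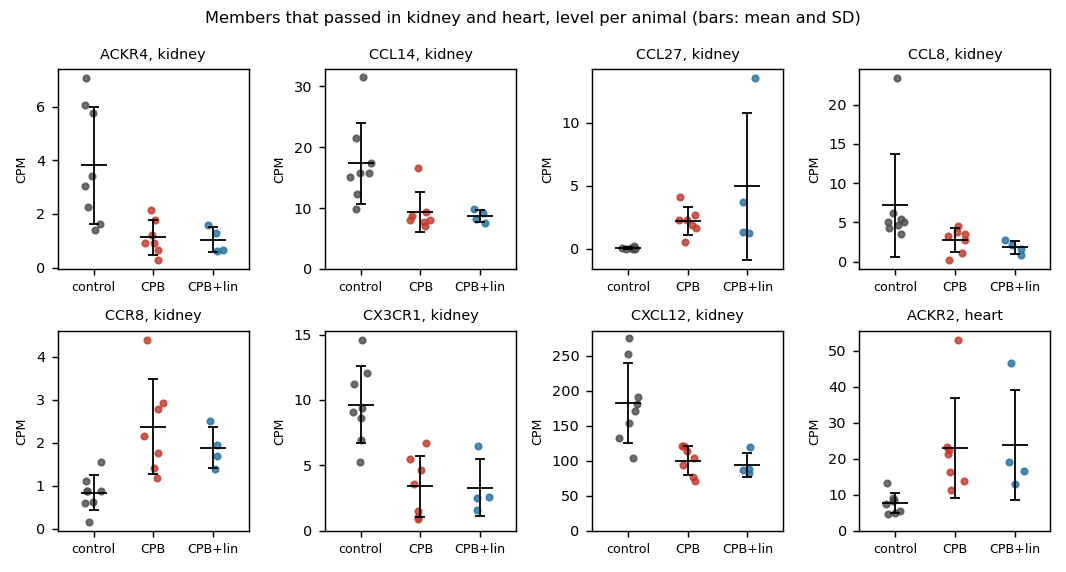
Level (CPM, linear axes from 0 or just below) of the members that passed in kidney and of ACKR2 in heart, with a point per animal for control (8), CPB (7) and CPB with linrodostat (4) and bars for mean and SD. CCL27 is near 0 in every control kidney and between 0.508 and 13.5 in all 11 kidneys after bypass.

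Values of other cell types moved in the same kidneys. Of the 11 monocyte and macrophage markers, 3 fell and 0 rose (SIGLEC1 -2.76 ± 0.70, CSF1R -1.16 ± 0.31, TIMD4 -2.13 ± 0.71). Their summed level ran from 121 to 897 CPM in control and from 131 to 263 in CPB kidneys, with none of the 11 at 0. Of 8 fibroblast and smooth muscle markers 5 fell, among them PDGFRA (-1.14 ± 0.35) and ACTA2 (-1.38 ± 0.35), and their sum ran from 741.5 to 1840 CPM in control and from 360.0 to 1025 in CPB kidneys. Of 6 tested neutrophil markers 1 rose (S100A12) and 1 fell, of 8 B cell markers CD22 fell, and none of 9 T and NK cell markers passed. Of 6 endothelial markers 2 fell (EMCN and TEK) and PECAM1 rose. Over all genes 11.3% passed as higher and 9.86% as lower in kidney. The part of these cell types in the changes of the 7 members was not tested.

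In liver the ligands CCL8, CCL14 and CXCL10 fell and CXCL14 rose. CCL8 gave the clearest fall: its control livers held 2.24, 3.13, 3.61, 4.21, 4.39, 4.78, 4.93 and 5.01 CPM. The CPB livers, ordered by level, held 0.540, 0.678, 0.968, 1.00, 1.39, 1.42 and 1.49 CPM. No CPB liver reached the lowest control, and the change was -1.91 ± 0.26 (adjusted p = 0.000157). CCL2 and CCL11, its neighbours in the same cluster on chromosome 12, were at -0.18 ± 0.48 and 0.50 ± 0.72 and did not pass. CCL14 fell by 0.79 ± 0.18 (adjusted p = 0.00414), with control livers from 8.67 to 22 CPM (median 13.6) and CPB livers from 5.58 to 10.7 (median 8.49). Control animal 15 was the only control inside the CPB range.

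CXCL10 (chr8:71693641-71695948), an interferon-induced ligand of CXCR3 on activated T cells, ranged from 44.4 to 825 CPM in control livers (median 114) and from 14.6 to 83.4 in CPB livers (median 38.8). It fell by 2.22 ± 0.68 (adjusted p = 0.0228). Control animal 15 held the 825, against at most 205 in the other 7 controls, and without it the change was -1.37 with an adjusted p of 0.0745. CXCL14 (chr2:137803988-137813118) rose by 1.16 ± 0.27 (adjusted p = 0.00422). Control livers held 2.17 to 5.83 CPM (median 3.51) and CPB livers 4.09 to 18.0 (median 8.16), and 6 of 7 CPB livers exceeded every control.

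The liver's receptor calls were all falls, among them CX3CR1, the row named CCR2 and the scavenger ACKR4. CX3CR1 ranged from 4.82 to 14.9 in control (median 9.59) and from 1.89 to 7.79 in CPB livers (median 3.47), a fall of 1.29 ± 0.29 (adjusted p = 0.00318). The row named CCR2 (chr13:29368735-29374564) fell by 0.70 ± 0.26 (adjusted p = 0.0476), from a control median of 6.08 CPM (4.33 to 8.87) to a CPB median of 3.13 (2.14 to 8.12). CPB animal 9 lay among the controls for this gene. The call ended without any of control 1, 10, 13 and 15 and CPB 2, 6, 11, 19, 21 and 25 (adjusted p 0.0721 to 0.102, highest without CPB 2).

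ACKR4 fell in liver by 1.36 ± 0.50 (adjusted p = 0.0484). Its control livers ranged from 1.14 to 8.01 CPM (median 1.82) and its CPB livers from 0.135 to 1.45 (median 1.20). The highest value was that of control animal 15, without which the change was -0.79 with an adjusted p of 0.172. It also missed the threshold without any of control 1, 4, 10, 14 and 26 and CPB 2, 9, 11, 19 and 25 (0.0508 to 0.0949). ACAD11, the gene spanning ACKR4, also fell in liver (-0.67 ± 0.24, adjusted p = 0.0435), and its part in the ACKR4 value was not tested.

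Markers of macrophages, T cells and B cells fell in the same livers, and 3 neutrophil markers rose. Of 11 monocyte and macrophage markers 5 fell (SIGLEC1 -1.38 ± 0.25, TIMD4 -0.80 ± 0.17 and CSF1R -0.69 ± 0.18 among them) and MSR1 rose. Their sum ran from 920 to 1696 CPM in control and from 996 to 1187 in CPB livers. Of 9 T and NK cell markers 3 fell (CD2 -1.44 ± 0.42, CD3E -1.17 ± 0.40, NKG7 -0.90 ± 0.30), with sums of 65.0 to 169 CPM in control and 25.5 to 98.9 in CPB. Of 8 B and plasma cell markers 6 fell, with sums of 19.2 to 43.6 CPM in control and 16 to 40.7 in CPB. Of 6 tested neutrophil markers 3 rose (S100A8 2.03 ± 0.44, S100A12 2.16 ± 0.44 and MMP8 2.98 ± 0.88) and 1 fell, and the sum over the 8 in the table ran from 8.03 to 18.3 CPM in control and from 8.14 to 23.4 in CPB livers. Over all genes 15.6% passed as higher and 11.3% as lower in liver. None of these markers was at 0 throughout an arm, and their part in the liver values was not tested.

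In lung CXCR4, ACKR3 and CXCL8 rose. CXCR4 (chr15:15663652-15666706) is the CXCL12 receptor carried by lymphocytes, neutrophils and other cells. Its control lungs held 20.4, 20.9, 30.0, 30.4, 32.7, 35.1, 38.2 and 39.6 CPM. The CPB lungs, ordered by level, held 42.9, 43.0, 51.2, 55.0, 57.1, 67.1 and 87.3 CPM. Every CPB lung exceeded every control lung, and the rise was 0.90 ± 0.17 (adjusted p = 0.00762). ACKR3 (chr15:136370457-136382559) went from a control median of 17.6 CPM (8.72 to 24.9) to a CPB median of 29.4 (21.0 to 44.3), a rise of 0.76 ± 0.18 (adjusted p = 0.024). CXCL12, the ligand that CXCR4 and ACKR3 share, was at -0.13 ± 0.24 in lung (adjusted p = 0.81).

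CXCL8 (chr8:69932646-69935861), the main neutrophil attractant, ranged from 1.27 to 2.98 CPM in 7 control lungs and was 8.67 in control animal 15. CPB lungs ranged from 3.80 to 28.2 CPM with a median of 7.41, and the rise was 1.83 ± 0.49 (adjusted p = 0.038). All 7 CPB lungs exceeded the 7 controls other than animal 15. The call ended without CPB animal 19, which held the 28.2 (1.33, adjusted p = 0.108), and without any of control 1, 4, 7, 10, 13, 14 and 26 and CPB 25 (0.0518 to 0.0793). CXCL2, another neutrophil attractant, was at 0.59 ± 0.51 in lung (adjusted p = 0.545). Of 6 tested neutrophil markers 2 rose in lung (S100A8 1.71 ± 0.37 and MMP8 2.64 ± 0.65), and the sum over the 8 in the table ran from 149 to 298 CPM in control and from 232 to 414 in CPB lungs. Over all genes 2.08% passed as higher in lung. The part of neutrophils in the values of CXCL8 and CXCR4 was not tested.

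Of 11 monocyte and macrophage markers 4 fell in lung (by most TIMD4, SIGLEC1 and CSF1R), and their sum ran from 3576 to 5227 CPM in control and from 2049 to 3955 in CPB lungs. Of 8 B and plasma cell markers 3 fell in lung (CD22 -1.03 ± 0.18, CD79A -0.74 ± 0.20 and PAX5 -1.22 ± 0.32), with sums of 173 to 343 CPM in control and 135 to 333 in CPB lungs, and none of 9 T and NK cell markers passed. Over all genes 2.62% passed as lower in lung. The part of macrophages and lymphocytes in the lung results was not tested. ACKR1, which binds inflammatory chemokines on venular endothelium and red cells, was just outside the threshold in lung at 1.23 ± 0.36 (adjusted p = 0.0514), with control lungs at 1.48 to 8.43 CPM and CPB lungs at 6.68 to 15.4. Of 6 endothelial markers KDR and EMCN fell and PECAM1 rose in lung, and their sum ran from 1769 to 2730 CPM in control and from 1860 to 2636 in CPB lungs.

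**Figure D4:**
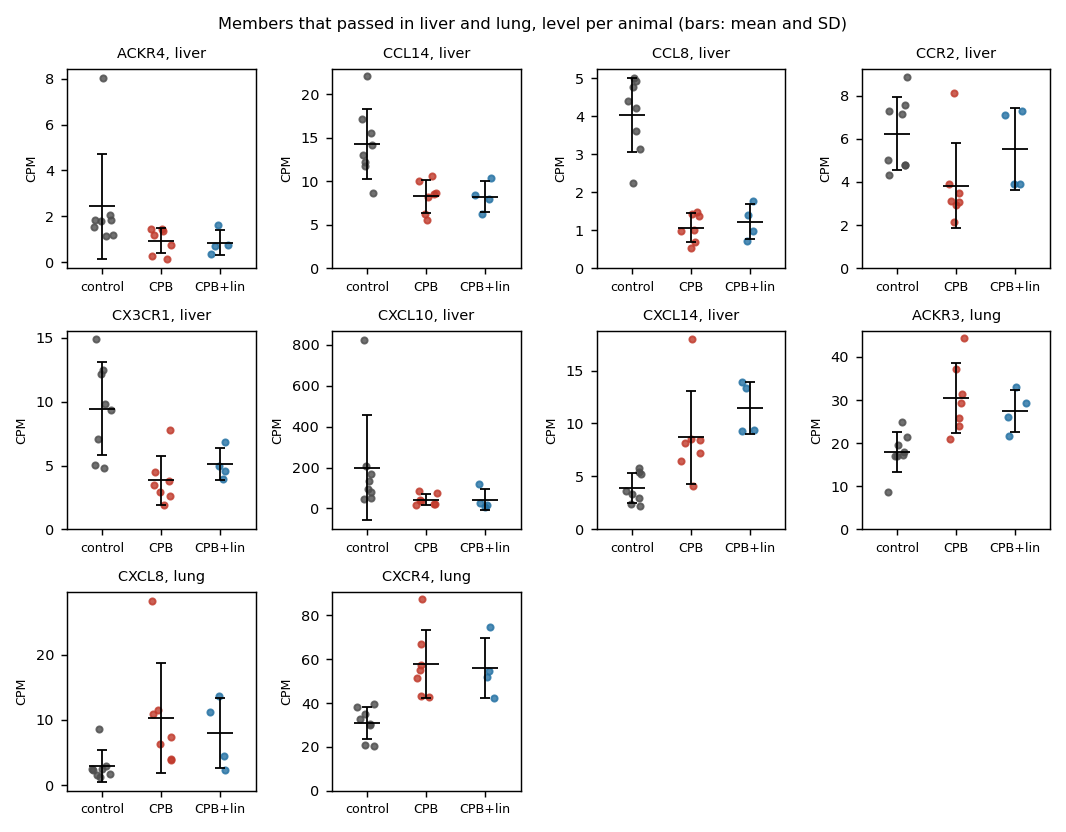
Level (CPM, linear axes from 0 or just below) of 7 of the 8 members that passed in liver and 3 of the 4 that passed in lung, with a point per animal and bars for mean and SD in control (8), CPB (7) and CPB with linrodostat (4). CCL8 in liver and CXCR4 in lung show no overlap between control and CPB, and 1 control animal stands far above the others for ACKR4 and CXCL10 in liver.

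In heart only ACKR2 rose. ACKR2 (chr13:26291583-26329506) is a scavenger of inflammatory CC chemokines. Its control hearts held 4.63, 4.83, 5.43, 7.40, 8.41, 8.59, 9.23 and 13.3 CPM. The CPB hearts, ordered by level, held 11.2, 14.0, 16.4, 21.2, 22.4, 23.3 and 53.0 CPM. 6 of the 7 CPB hearts were above every control, and the change was 1.57 ± 0.33 (adjusted p = 0.00409). The linrodostat hearts held 13.1 to 46.6. ZNF662, which overlaps ACKR2 on the assembly, was at 0.35 ± 0.17 (adjusted p = 0.195). Of 8 fibroblast and smooth muscle markers CNN1 (2.04 ± 0.29) and DES (0.65 ± 0.17) rose in the same hearts. DES is also a gene of heart muscle, at 4366 CPM in control hearts, and makes up most of that list's sum, which ran from 4041 to 5975 CPM in control and from 4417 to 9073 in CPB hearts. Of 11 monocyte and macrophage markers CD163 (1.22 ± 0.31) and CD14 (0.72 ± 0.19) rose, with sums of 109 to 314 CPM in control and 151 to 378 in CPB hearts. Over all genes 6.39% passed as higher in heart. The part of these cell types in the ACKR2 value was not tested. CCL8, CCL21 and CCL14 were lower on average in CPB hearts without passing (-1.56 ± 0.60, -1.08 ± 0.39 and -0.54 ± 0.19, adjusted p 0.0923, 0.0737 and 0.0611).

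In ileum no member passed, and 4 of 40 had an unadjusted p under 0.05. DESeq2 and limma-voom also called 0 members there. The largest changes in size were CXCL2 at -1.41 ± 0.51 (adjusted p = 0.839) and CXCL8 at -1.08 ± 0.42 (adjusted p = 0.889). Replicates varied more in this organ than in the others, with a biological coefficient of variation of 0.526 against 0.339 to 0.365. Leaving out the ileum of CPB animal 19, whose CCL25 was at 1.09 CPM and CCR9 at 2.48 against at least 96.7 and 16.9 in the other CPB ileums, also gave 0 members.

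Whether the response to bypass differed between organs was tested in a single fit over the 75 control and CPB libraries. The difference passed for 4 members, where 15.2% of all genes passed. CCL27 is among them (adjusted p = 0.000119), but it had 0 to 19 reads per arm outside kidney, so no difference between organs is read from its value. ACKR4 (adjusted p = 0.0215) was at -1.75 ± 0.42 in kidney, -1.36 ± 0.50 in liver, -0.27 ± 0.35 in lung, -0.25 ± 0.34 in ileum and 1.01 ± 0.66 in heart. CXCL8 (adjusted p = 0.0271) was at 1.83 ± 0.49 in lung, 1.44 ± 0.62 in kidney, 1.17 ± 0.75 in heart, 0.62 ± 0.38 in liver and -1.08 ± 0.42 in ileum. ACKR2 (adjusted p = 0.0342) was at 1.57 ± 0.33 in heart and 0.95 ± 0.35 in kidney and between -0.22 and 0.00 in the other 3 organs. With the animal as a block, which fits these libraries since each animal gave all 5, 8 members passed. Over all genes 3810 of 19321 passed with the block and 2941 without it, so the count rose for genes in general too. The added members included CXCL2 (adjusted p = 0.0325), CXCL12 (0.0383) and CXCL14 (0.0399). Without heart 2 members passed (2379 of 19128 over all genes), as ACKR2 (0.298) and ACKR4 (0.115) did not. With limma-voom CXCL8 (0.434) and ACKR4 (0.262) did not pass, where 1588 of 19321 genes passed. Without the filter on low counts ACKR2 was at 0.0531. Without CPB 2 ACKR4 was at 0.0809. CXCL8 missed the threshold without control 13, 14 or 26 or CPB 19, 21 or 25 (0.0521 to 0.099) and ACKR2 without control 4, 7, 10, 13, 14 or 15 or CPB 9, 19 or 25 (0.0501 to 0.077).

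CX3CR1 and CCL8, which passed in kidney and liver, were also lower on average in CPB in the other 3 organs, without passing there. CX3CR1 was at -1.50 ± 0.41 in kidney, -1.29 ± 0.29 in liver, -1.50 ± 0.60 in heart, -1.37 ± 0.57 in lung and -0.35 in ileum, and the test between organs gave an adjusted p of 0.57 (0.154 with the animal as a block). CCL8 lay between -0.50 and -1.91 in all 5 organs, and the test between organs gave an adjusted p of 0.357. A p above the threshold does not show that the organs respond alike.

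The interferon-induced CXCR3 ligands CXCL9, CXCL10 and CXCL11 sit together on chromosome 8. For CXCL10 single animals of the control and linrodostat arms stood far above the rest. In kidney CXCL10 was at 1223 CPM in control animal 15 and at 35.8 to 131 in the other 7 controls. In lung the same animal held 1483 against 85.2 to 447, in liver 825 against 44.4 to 205, and in heart 337 against 25.6 to 194. Control 15 was thus the highest control in 4 of the 5 organs, and in ileum control animal 4 was highest at 834. In the linrodostat arm animal 18 stood apart in the same 4 organs, with 541 CPM in lung against 12.8 to 23.6 in the other 3, 314 in heart against 1.75 to 17.4, 222 in kidney against 10.2 to 29.5, and 121 in liver against 8.78 to 26.2. CXCL11 in lung was at 97.5 CPM in control 15 and at most 12.5 in the other controls. CXCL9 in kidney was at 383 in control 15 and at most 76.8 in the others. Such a gap was not seen in every organ. In heart CXCL9 was at 69.5 and 66.4 in controls 4 and 26, and in liver CXCL11 was at 5.09 and 4.42 in controls 15 and 14. In the linrodostat arm animal 12, not 18, was highest for CXCL9 and CXCL11 in kidney and liver. CXCR3, the receptor of these ligands, passed in no organ (liver -0.90 ± 0.34, adjusted p = 0.0566). CPB changes of CXCL9 were -1.51 ± 1.04 in kidney and -1.02 ± 0.50 in liver, and neither passed.

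**Figure D5:**
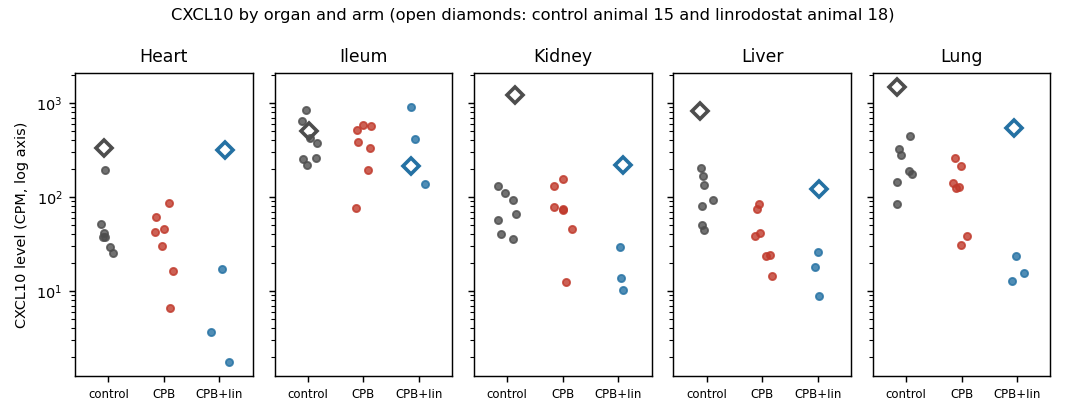
CXCL10 level on a logarithmic CPM axis in each organ by arm, with a point per animal (8 control, 7 CPB, 4 CPB with linrodostat). Open diamonds mark control animal 15 and linrodostat animal 18, which are the highest of their arms in heart, kidney, liver and lung but not in ileum.

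Linrodostat was compared with bypass alone next. CCL25 in liver was the only member to pass in any organ, where 0.772% of all liver genes passed (119 of 15406, 0.759% higher and 0.013% lower). Its 7 CPB livers held 0.581, 0.732, 1.10, 1.15, 1.74, 1.81 and 1.97 CPM and the 4 linrodostat livers, ordered by level, 4.50, 5.18, 7.05 and 12.5. Every linrodostat liver exceeded every CPB liver, and the difference was 2.49 ± 0.51 (adjusted p = 0.0217). Control livers ranged from 0.460 to 5.42 CPM, overlapping both arms. The call ended without linrodostat animal 18 (2.10, adjusted p = 0.168) and without any of CPB 2, 11, 21 and 25 (0.0514 to 0.0551).

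Some genes of gut epithelium and B cells were higher than with bypass alone in the same livers. FABP6 rose with linrodostat in liver by 4.03 ± 0.76 (adjusted p = 0.0147), with CPB livers at 1.05 to 6.05 CPM and linrodostat livers at 29.0 to 112. Control livers held it at 0.874 to 25.3 CPM. FABP2, the intestinal fatty acid binding protein, rose by 3.85 ± 0.85 (adjusted p = 0.038). It was at 0 to 9.52 CPM in control, 0.515 to 2.55 in CPB and 9.93 to 37.3 in linrodostat livers. In ileum FABP6 was at 2324 to 7191 CPM in control animals and CCL25 at 104 to 341. Animal 18 was highest of the arm for CCL25, FABP6 and FABP2 alike. The other ileal markers did not pass (VIL1 0.61 ± 0.46, APOA4 0.04 ± 1.11), and APOA4 was abundant in liver in all arms. The sum of the 4 ran from 154 to 4542 CPM in CPB and from 581 to 2088 in linrodostat livers, with none at 0 throughout an arm. Of 8 B and plasma cell markers 3 rose (among them PAX5 1.92 ± 0.40 and CD79B 1.73 ± 0.39), with sums of 16 to 40.7 CPM in CPB and 23.8 to 66.6 in linrodostat livers. Control livers had sums of 19.2 to 43.6 CPM. The median sum was 29.9 in control, 20.2 in CPB and 28.3 in linrodostat livers. The part of gut or B cell transcripts in the CCL25 value was not tested. CCR9, the receptor of CCL25, was at 0.95 ± 0.41 in liver (adjusted p = 0.52).

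In heart, ileum, kidney and lung 0 members passed between linrodostat and bypass alone, with 3, 2, 1 and 0 members at an unadjusted p under 0.05. DESeq2 and limma-voom called 0 members in these 4 organs as well. No gene at all passed there in the edgeR fit (0% of each organ's tested genes). With 4 animals against 7 the standard errors of single members ran up to 1.31 on the log2 scale, reached by CXCL11 in heart, which limits the size of change that could pass.

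Linrodostat animals were also compared with the same controls, so these values share the controls with those above and are set beside them only. In kidney 4 rose and 5 fell of 40, where 20% of all genes passed (11.7% higher and 8.27% lower). CCL27 was at 6.48 ± 0.78 against 5.32 ± 0.73 without the drug, CXCL12 at -0.95 ± 0.22 against -0.87 ± 0.18, and CX3CR1 at -1.55 ± 0.50 against -1.50 ± 0.41. In liver 5 rose and 3 fell of 36, where 21.8% of all genes passed (12.9% higher and 8.88% lower): CCL25, CCL26, CXCL8, CXCL14 and CXCR4 rose, and CCL8 and CCL14 were among those that fell. CXCL8 in liver was at 1.86 ± 0.43 with the drug (adjusted p = 0.00573) and 0.62 ± 0.38 without it, and the 4 linrodostat livers held 1.21 to 2.78 CPM against at most 0.951 in control. CXCR4 in liver was at 1.54 ± 0.36 against 0.62 ± 0.32. The direct comparison of the arms did not pass for CXCL8 (adjusted p = 0.359) or CXCR4 (0.479) in liver. Several calls against control were lost when 1 library was left out. CXCR4 in liver missed the threshold without linrodostat 12 (0.97, adjusted p = 0.0642), and CXCR4 in lung without control 1 or linrodostat 12 or 24 (0.0521 to 0.138). In kidney CCR8 missed it in 9 of 12 fits that left out 1 library (control 1, 4, 7, 15 and 26 and each linrodostat animal, 0.058 to 0.152). CX3CR1 missed it in 6 of 12 (control 7, 15 and 26 and linrodostat 12, 20 and 24, 0.0508 to 0.101), CCL8 in 3 of 12 (linrodostat 12, 18 and 24, 0.0543 to 0.0996) and ACKR4 without linrodostat 12 (0.0637). In liver CCL25 (0.0682) and CCL26 (0.0778) missed it without linrodostat 18 and CCL14 without linrodostat 18 or 24 (0.0594 and 0.0505).

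In the main fit ACKR1 passed against control in 3 organs of the linrodostat arm and in none of the CPB arm, and the direct test between the arms did not pass. In CPB lung it passed with DESeq2 (adjusted p = 0.0101), limma-voom (0.0429), a term for sex (0.025) or only the 2 groups compared (0.0395). The linrodostat call was lost in lung without the filter (0.0628) or with only the 2 groups compared (0.0688). It was lost in heart without the filter (0.0731) or with limma-voom (0.162). In lung 2 of 40 rose, where 2.35% of all genes passed (1.06% higher and 1.28% lower), with ACKR1 at 1.64 ± 0.40 (adjusted p = 0.0366) and CXCR4 at 0.85 ± 0.20 (adjusted p = 0.0286). In heart 2 of 32 rose, where 2.04% of all genes passed (1.08% higher and 0.96% lower), with ACKR1 at 2.92 ± 0.72 (adjusted p = 0.0394) and ACKR2 at 1.62 ± 0.37 (adjusted p = 0.027). In kidney ACKR1 was at 1.86 ± 0.49 (adjusted p = 0.0123). The 4 linrodostat hearts held 0.349, 0.865, 6.06 and 10.6 CPM, so 2 of them lay inside the control range of 0.129 to 1.11. Animal 18 was highest in all 3 organs, and without it ACKR1 was at 2.04 in heart (adjusted p = 0.175), 1.30 in kidney (0.110) and 0.99 in lung (0.187). Other left-out libraries ended the ACKR1 call in heart (control 1, 4, 7, 10, 14, 15 and 26 and linrodostat 12, adjusted p 0.0539 to 0.0819) and in lung (control 1, 7, 10 and 26 and linrodostat 12 and 24, 0.0545 to 0.0853). The direct difference from CPB was 1.64 ± 0.73 in heart (adjusted p = 0.81), 0.88 ± 0.51 in kidney and 0.41 ± 0.42 in lung. The ACKR2 call in heart ended without control 10, 14 or 15 or linrodostat 24 (0.051 to 0.0532) and without linrodostat 12, when it was 1.07 (adjusted p = 0.14). In ileum 0 of 40 members passed against control, with 3 at an unadjusted p under 0.05, where 0.213% of all genes passed (0.151% higher and 0.0616% lower). DESeq2 and limma-voom also called 0 members.

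25 of the 43 members passed in no arm comparison. By mean control level the highest of these were CCL16 in liver (324 CPM), CCL5 in lung (201), CCL19 in ileum (196), CXCL9 in ileum (186) and CCL21 in lung (80.3). CCL5, a T cell and monocyte attractant, was at -0.19 ± 0.60 in lung and between -0.39 and 0.00 in the other 4 organs. CCL16 was at 0.23 ± 0.12 in liver (adjusted p = 0.17). CCL21, the lymphatic ligand of CCR7, was at -0.02 ± 0.25 in lung. CCL2, the classic monocyte attractant, was between -0.81 and 0.02 in the 5 organs with no call. CCL1 had 105 reads in all 95 libraries together and was tested nowhere.

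Genes that act with the receptors were counted beside the shares of all genes given above for CPB against control. Of 19 signalling genes in the table, from G protein subunits to arrestins and Rac regulators, 1 rose and 6 fell in liver, where 26.9% of all genes passed, and 5 fell in lung, where 4.71% passed. In kidney 1 rose and 3 fell, where 21.1% of all genes passed, and in heart 1 rose, where 11.9% passed. The medians of this list were -0.42 in liver, -0.27 in lung, -0.47 in kidney and -0.09 in heart, beside medians over all genes between -0.03 and 0.01. DOCK2, the Rac activator that leukocytes need for chemotaxis, fell in liver (-1.15 ± 0.22) and in lung (-1.14 ± 0.20). RAC2, a Rac protein of blood cells, fell in liver (-1.01 ± 0.28) and lung (-0.90 ± 0.25). GRK5, a receptor kinase, rose in heart (0.91 ± 0.18).

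Of 13 adhesion molecules that work with chemokines in leukocyte exit 6 fell in liver, 5 fell and 1 rose in lung, 3 fell and 1 rose in kidney and 1 fell in heart. Over all genes 11.3% passed as lower in liver, 2.62% in lung, 9.86% in kidney and 5.53% in heart. The shares that passed as higher were 2.08% in lung and 11.3% in kidney. ITGAL, the leukocyte integrin LFA-1, fell in liver (-1.18 ± 0.25) and lung (-1.11 ± 0.17), and ITGAM, the integrin chain of Mac-1, fell in kidney (-1.01 ± 0.26). Of 17 cytokines and factors known to induce chemokines, FOSL1 rose in kidney (5.02 ± 0.72) and liver (2.10 ± 0.65) and CEBPB rose in liver (0.88 ± 0.21). The mean level of FOSL1 was 0.308 CPM in control and 10.1 in CPB kidneys. In liver it was low in both arms, at 0.0757 and 0.331 CPM. TNF (-1.34 ± 0.32) and IRF1 (-1.23 ± 0.29) fell in liver, IRF1 fell in heart (-1.18 ± 0.35), and IL13 was among the genes that fell in lung. IL13 was low there, with a mean of 0.364 CPM in control and 0.0433 in CPB lungs. In ileum none of these 3 lists had a gene that passed. Among 4 related genes under other symbols, the chemerin-binding receptor CCRL2 fell in liver (-0.73 ± 0.23). Of 3 dendritic cell markers ZBTB46 fell in liver (-0.52 ± 0.16), and none of 3 platelet markers passed in any organ. The lists were chosen with earlier results of these data known.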

How the data were processed

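RNA of 95 tissue samples was sequenced with reads of 150 bp. The authors deposited expected counts per gene, and per the submitters' processing notes the tools named are Salmon, STAR, MultiQC, cutadapt, Trim Galore and bcl2fastq with the assembly Sscrofa11.1. Their versions, the annotation release and the use of strand are not given in the sources used here. Between 92.7% and 96.6% of the values of a library were whole, and all were rounded to whole numbers.

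Each organ was fitted over its 19 libraries and 3 arms with edgeR 4.0.16 in R 4.3.3 (filterByExpr, TMM, robust quasi-likelihood test, Benjamini-Hochberg adjusted p under 0.05 over all genes tested). Standard errors are the size of the log2 fold change divided by the root of F. Differences between organs were tested by the organ by CPB terms over 75 libraries, and organs against each other over 40 control libraries. The procedure was tested on simulated data. The fits were repeated with DESeq2 1.42.0, with limma 3.58.1 and voom, with size factors by relative log expression, without the filter on low counts, with a term for sex, with libraries of the compared arms alone, and without each animal in turn.

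Each animal gave a library in all 5 organs, so libraries of different organs pair by animal. The median correlation of the paired libraries' deviations from their group means was 0.0928 to 0.259 over 10 organ pairs (19 animals, 14798 genes). No libraries were identical.

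The members and the gene lists were chosen with earlier results of these data known. Members were named with values where they passed CPB against control, linrodostat against CPB or the test between organs. Of those that passed nowhere the 5 with the highest control level were named, and of other lists up to 3 passing genes per organ. Linrodostat against control shares its controls with CPB against control. RefSeq gave positions on Sscrofa11.1. Some genes of the members and lists are not reported here, though the counts include them.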

Additional observations from a re-analysis of the deposited data

Results flagged for a closer look

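A single library lay far from the rest of its group for 6 of the 63 groups examined, where chance gives about 1 in 20. In kidney these were CCL14 in CPB animal 11 (16.5 CPM, highest), CCL8 in control animal 15 (23.3 CPM, highest) and CCR8 in control animal 14 (0.163 CPM, lowest). In liver ACKR4 in control animal 15 was highest at 8.01 CPM. In lung ACKR3 in control animal 26 was lowest at 8.72 CPM and CXCL8 in control animal 15 was highest at 8.67 CPM.

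The change after bypass differed between organs for 4 members in edgeR's quasi-likelihood test. The adjusted p was 0.0215 for ACKR4, 0.0271 for CXCL8 and 0.0342 for ACKR2. It was 0.000119 for CCL27, which had 0 to 19 reads per arm outside kidney, so no difference between organs is read from that value.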

How the results depend on the processing

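No paired analysis was possible because the 3 arms hold different animals, whose numbers are not shared within an organ. Between organs the animals pair the libraries: with the animal as a block 8 members differed between organs, against 4 without it (CCL27 included in both), and 2 without heart or with limma-voom. Over all genes 3810 passed with the block, 2941 without it, 2379 without heart and 1588 with limma-voom. In the contrasts of each organ with the others the block changed the counts of members passing by less than 1.5 times, with 17 calls gained and 2 lost among 205 (41 members in 5 organs).

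For CPB against control, members passing in heart were 4 with DESeq2, 2 with limma-voom and 2 with only the 2 groups compared, against 1. Over all genes heart gave 2461, 1865 and 1861 under those settings, against 1775. Without the low-count filter 5 members passed in liver, against 8, and 2 in lung, against 4. Over all genes liver gave 3315 without the filter, against 4151, and lung 566, against 840. For linrodostat against control, 0 members passed in heart without the filter and 1 with limma-voom (against 2). In liver 13 passed with DESeq2 (against 8), and in lung 1 without the filter or with only the 2 groups compared (against 2). Over all genes heart gave 203 without the filter and 244 with limma-voom, against 304. Liver gave 3940 with DESeq2, against 3358. Lung gave 278 without the filter and 513 with only the 2 groups compared, against 419.

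Leaving out 1 animal at a time gave ranges for CPB against control of 1 to 3 in heart (3 without control 13, CPB 9 or CPB 11, and 2 without CPB 25), 6 to 9 in kidney, 0 to 0 in ileum, 5 to 12 in liver (5 without control 15, 12 without CPB 9) and 2 to 6 in lung (2 without control 1, control 26 or CPB 25, 6 without CPB 6). For linrodostat against CPB the range was 0 to 1 in liver and 0 to 0 elsewhere. For linrodostat against control the lung gave 0 to 3, the liver 6 to 10, the kidney 5 to 10, the heart 0 to 2 and the ileum 0 to 0. In the heart it was 0 without control 10, 14 or 15 or linrodostat 12, in kidney 5 without linrodostat 12, and in lung 0 without control 1 or linrodostat 12 or 24. The difference between organs ranged from 2 to 4 (2 without control 13, control 14, CPB 19 or CPB 25).

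Over all genes, calls moved by more than 1.5 times with DESeq2: 16 against 0 in ileum and 1722 against 840 in lung for CPB against control, and 208 against 119 in liver for linrodostat against CPB, with 16, 86, 4 and 3 against 0 in heart, ileum, kidney and lung. For linrodostat against control DESeq2 gave 693 against 304 in heart, 818 against 38 in ileum and 1108 against 419 in lung. There the ileum gave 72 with the other size factors and 0 without the filter, with sex or with only the 2 groups compared. Limma-voom gave 1588 genes that differed between organs, against 2941.

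Of 46 single calls, all 46 held under the other size factors. 13 missed the threshold without the filter and 5 with limma-voom. Of the 42 calls between arms 5 missed it with only the 2 groups compared and 2 with sex. Of the 4 calls between organs 2 missed it without heart. In leave-one-out fits 503 held and 120 missed the threshold, and no call between arms changed direction. The cause was not tested. Genes with few reads, such as CCL27 outside kidney, could not be assessed.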
